A study of Mus musculus with 6 samples.

Results

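The genes described here encode the enzymes and transporters that take up glucose, convert it to pyruvate and lactate, divert it into the pentose phosphate pathway and control the entry of pyruvate into the mitochondrion. A list of 35 such genes was matched by annotated symbol to the probe sets of a mouse expression array, and 32 of the 35 were measured among 18194 genes. Gpi1, Eno1 and G6pdx had no probe set here that was annotated with that symbol alone, and are not described further. For each gene the brightest probe set over the 6 arrays was used, and for the 19 members with several probe sets, which together with the single ones came to 71, the other probe sets were read as a check.

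The study compared antibody-secreting plasma cells with resting B cells of C57BL/6 mice, with 3 one-colour arrays in each group. Plasma cells were B220- CD138+ cells of the bone marrow, taken 7 days after a booster injection of the protein antigen KLH, enriched on CD138 beads and then sorted, with 50000 to 70000 cells in a preparation. B cells were B220+ CD23+ cells of the spleen, labelled naive, with 2000000 to 3000000 cells in a preparation. The groups therefore differed in tissue, immunisation and cell number as well as in cell type, and these cannot be told apart. By the sex-linked RNAs given below, B cell arrays 2 and 3 also differed in sex from all other arrays. Sex therefore differed in part along with cell type. Age and the number of animals behind an array are not given in the sources used here, and the p-values below reflect differences among these arrays, which may be technical.

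Glycolysis splits glucose into pyruvate in the cytosol, with a small yield of ATP. Lactate dehydrogenase can turn pyruvate into lactate, which leaves the cell through monocarboxylate transporters, or pyruvate can enter the mitochondrion through pyruvate dehydrogenase, an enzyme that the pyruvate dehydrogenase kinases switch off. The pentose phosphate pathway takes glucose 6-phosphate to make NADPH and ribose for nucleotides. Plasma cells are known to take up glucose in large part for the sugar chains of the antibody they secrete. Several of the steps are carried out by isoenzymes, closely related proteins from separate genes that differ in tissue distribution and control. RNA levels do not give enzyme activity or flux.

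The defining markers separated the groups as labelled: all 6 plasma cell markers measured were higher in plasma cells, and all 6 B cell markers measured were lower. B cell array 1 stood apart. Its correlation with the other B cell arrays over all 45101 probe sets was 0.934 and 0.926. It was 0.992 between those 2 and 0.985 to 0.989 among plasma cell arrays. The summed intensity of 10 of 12 T and NK cell markers was 5273 on B cell array 1, against 307 and 363 on the other B cell arrays and 1006 to 1820 on the plasma cell arrays. That of 10 of 11 granulocyte markers was 12891 on B cell array 1, 2952 and 1951 on the other B cell arrays, and 8535 to 20088 on the plasma cell arrays. Most of the granulocyte sum was S100a8 (mean 1994 in B cells and 5079 in plasma cells) and S100a9 (2949 and 6794). Mpo was called higher, Csf3r was called lower and the other granulocyte markers were not called. Of the T and NK cell markers only Cd4 was called, higher in plasma cells (mean 17.1 and 388). The 7 dendritic cell markers summed to 1774 to 2396 in B cells and 6172 to 7751 in plasma cells, most of it Bst2 (mean 992 and 5082); Bst2 and Flt3 were called higher and Zbtb46 lower. The 7 basophil, mast cell and eosinophil markers summed to 354 to 920 and 13921 to 14897. Nearly all of the plasma cell sum was Prg2 (mean 12882) and Kit (mean 1477), while Gata2 was called lower and Mcpt8, Cpa3, Ms4a2 and Epx were not called. The sum of 7 of 8 monocyte and macrophage markers went the other way, from 3624 to 5467 in B cells to 1809 to 2253 in plasma cells, with 3 called lower and 1 higher. No listed marker intensity was exactly 0. Xist, the RNA of the inactive X chromosome, read 8408 on B cell array 1 and 8070 to 8702 on plasma cell arrays, but 30.8 and 18.1 on the other B cell arrays. Kdm5d, a gene of the Y chromosome, read 3.57 on B cell array 1 and 3.00 to 8.84 on plasma cell arrays. On B cell arrays 2 and 3 Kdm5d read 1507 and 1576. The part of these cells in the results below was not tested; fewer cells of a type and less RNA per cell cannot be told apart in such samples. Results are therefore given with B cell array 1 and, where it mattered, without it.

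Of the 32 genes measured, 10 were higher in plasma cells and 6 were lower at a Benjamini-Hochberg adjusted p below 0.05 in limma, with adjustment over all 18194 genes. Over all genes 17.5% were called higher and 12.3% lower, 29.9% in all. At 2-fold or more 6 members were higher and 4 lower, against 10.9% and 6.78% of all genes. Fold changes are on the log2(intensity + 16) scale, as plasma cell minus B cell. The median log2 fold change of the 32 was 0.28, beside -0.06 over all genes, and the median size regardless of sign was 0.57 beside 0.45. The 3 plasma cell and 3 B cell intensities did not overlap for 20 of the 32 members, against 47.8% of all genes. Of the members' 71 probe sets 18 were called higher and 9 lower, beside 29.0% called in either direction among all probe sets, and no member had probe sets called in both directions. The genes called higher were Hk2, Pfkm, Pfkp, Pgk1, Eno2, Pdk1, Pdk2, Pdk3, Rpia and Slc16a1. Those called lower were Slc2a1, Slc2a3, Eno3, Ldha, Pfkfb3 and Pfkfb4. Isoenzymes of 1 step differed: Hk2 was called higher and Hk1 and Hk3 were not called, Pfkm and Pfkp were called higher and Pfkl was not called, and Eno2 was higher and Eno3 lower.

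**Figure D1:**
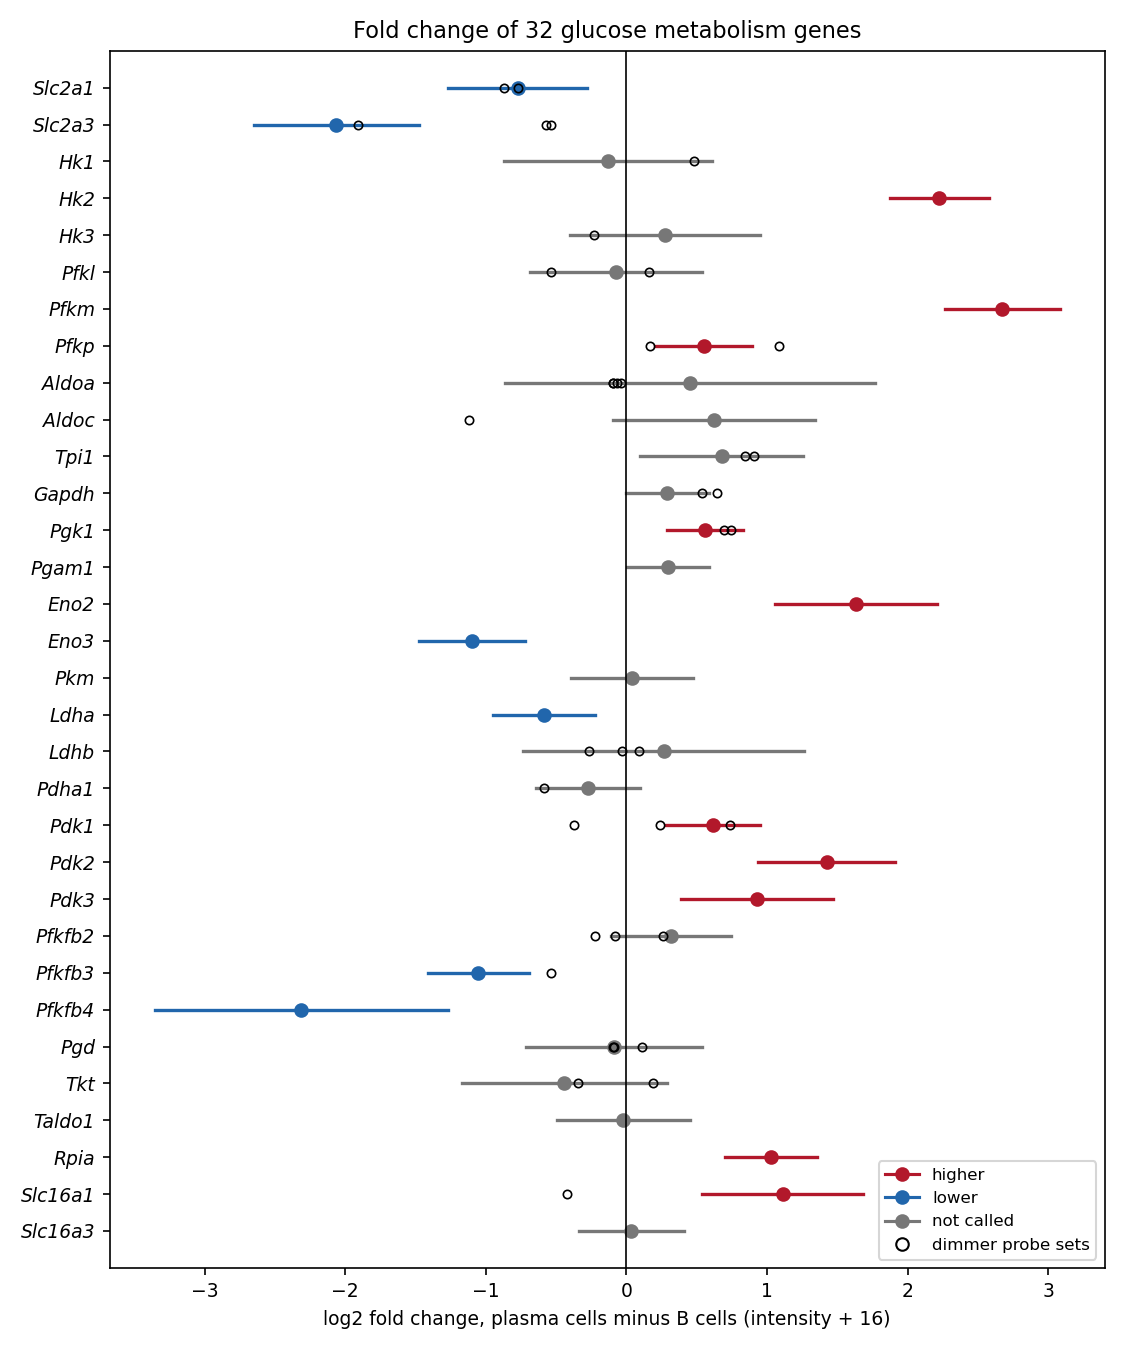
Log2 fold change of each of the 32 measured genes, plasma cell minus B cell, with its 95% confidence interval from limma, ordered by role. Pfkm and Hk2 lie farthest to the right at 2.67 and 2.23, and Pfkfb4 and Slc2a3 farthest to the left at -2.31 and -2.06.

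Promoter windows of 250 bases before the annotated start were read from RefSeq sequences of build GRCm38.p6. They covered 34 of the 35 genes, with 51 windows in all. Some windows of the same gene overlap, as for Aldoa, so the windows are not separate promoters. The letters ACGTG, which hypoxia response elements contain and which overlap the E-box CACGTG bound by Myc and related factors, were searched on both strands, so that each CACGTG counts on both. ACGTG was in 19 of the 51 windows (37.3%) and in 16.6% of all 32851 windows in the table. Among windows with at least 14 CG pairs it was in 13 of 27 members' windows (48.1%) and in 25.0% of all such windows. It was in 7 of 15 windows of genes called higher, 4 of 7 of genes called lower and 8 of 24 of those not called, so it was found in both directions. CACGTG itself was in 11.8% of members' windows and 6.02% of all. The following 4 windows are shown because, among genes called higher and among genes called lower, they held the most copies, with ties broken by the size of the fold change, and they were chosen after the search. They are Pfkm, chr15:98092339-98092588 on the plus strand, Hk2, chr6:82774455-82774704 on the minus strand, Ldha, chr7:46845554-46845803 on the plus strand, and Pfkfb3, chr2:11502091-11502340 on the minus strand, each 5′ to 3′ on the strand of the gene with the motif in capitals.
Pfkm promoter: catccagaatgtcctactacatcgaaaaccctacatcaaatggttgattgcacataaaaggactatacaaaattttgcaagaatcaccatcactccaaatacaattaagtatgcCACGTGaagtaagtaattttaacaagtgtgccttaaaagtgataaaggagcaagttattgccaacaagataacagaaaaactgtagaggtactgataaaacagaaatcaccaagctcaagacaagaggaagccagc
Hk2 promoter: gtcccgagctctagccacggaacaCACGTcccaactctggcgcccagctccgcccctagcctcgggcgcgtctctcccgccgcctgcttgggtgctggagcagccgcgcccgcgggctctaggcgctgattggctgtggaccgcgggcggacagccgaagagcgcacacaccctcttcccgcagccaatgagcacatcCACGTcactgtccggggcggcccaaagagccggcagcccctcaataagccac
Ldha promoter: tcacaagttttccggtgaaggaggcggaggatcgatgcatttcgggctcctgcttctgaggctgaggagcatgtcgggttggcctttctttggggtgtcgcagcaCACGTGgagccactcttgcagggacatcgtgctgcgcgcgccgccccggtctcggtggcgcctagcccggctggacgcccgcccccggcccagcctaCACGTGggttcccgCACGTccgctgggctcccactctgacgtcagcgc
Pfkfb3 promoter: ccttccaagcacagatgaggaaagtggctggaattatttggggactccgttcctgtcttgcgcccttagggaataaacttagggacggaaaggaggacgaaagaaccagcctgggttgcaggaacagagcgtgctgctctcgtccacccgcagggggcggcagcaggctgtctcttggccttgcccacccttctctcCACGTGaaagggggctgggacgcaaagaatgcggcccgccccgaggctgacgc
Windows at other annotated starts of these genes held fewer copies: 1, 0 and 0 for Pfkm, 0 for Ldha and 1 for Pfkfb3. A match is a description of the letters and not of a bound site, and no binding was measured.

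Both glucose transporters of the list were lower in plasma cells. Slc2a3 encodes GLUT3, a transporter of high affinity. Its intensity was 2555, 2287 and 2309 on the B cell arrays and 464, 465 and 803 on the plasma cell arrays. The groups were far apart, with a log2 fold change of -2.06 ± 0.24 (SE, n = 3 and 3; adjusted p = 0.00155). A second probe set gave -1.91 and was also called. Its 2 dim probe sets gave -0.53 and -0.57 and were not called, and the 2 called ones carry the suffixes that mark sequence shared with other transcripts. Without such probe sets Slc2a3 was not called (-0.53, adjusted p = 0.275). Slc2a1, which encodes GLUT1, the transporter of most dividing cells, read 3256, 5034 and 5071 in B cells and 2513, 2586 and 2550 in plasma cells. Plasma cell values were all lower, and B cell array 1 lay nearest to them (-0.77 ± 0.20, adjusted p = 0.0338). Its other probe sets gave -0.87 and -0.77.

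The hexokinases, which trap glucose by phosphorylating it, diverged. Hk2 encodes the inducible hexokinase bound to mitochondria. It read 365, 317 and 415 in B cells and 1671, 1897 and 1715 in plasma cells. It was 4.68-fold higher in plasma cells, with no overlap (2.23 ± 0.14, adjusted p = 0.000194). Hk1, the housekeeping form, read 616, 1297 and 1241 in B cells and 967, 907 and 860 in plasma cells. The B cell values lay on both sides of the plasma cell values, and Hk1 was not called (-0.13 ± 0.30, adjusted p = 0.781). Hk3, a form found mainly in myeloid cells, read 105, 41.9 and 59.0 in B cells and 82.5, 83.6 and 78.9 in plasma cells (0.27 ± 0.28, adjusted p = 0.505). Its second probe set gave -0.23 and was not called. Among B cell arrays Hk3 was highest on array 1, which had the highest granulocyte markers of its group. That array also had the highest background of its group (40.6, against 23.0 and 25.2). On the plasma cell arrays, with granulocyte marker sums of 8535 to 20088, Hk3 read 78.9 to 83.6. A link between Hk3 and granulocytes was not tested.

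Phosphofructokinase commits sugar to glycolysis, and its 3 genes gave 3 different patterns. Pfkm, the muscle-type subunit, was dim in B cells at 70.5, 101 and 95.4 and read 617, 603 and 728 in plasma cells. It was 6.38-fold higher, the largest change among the members with all 6 arrays (2.67 ± 0.17, adjusted p = 0.000173). Without B cell array 1 Pfkfb4 changed more (-2.80, against 2.54 for Pfkm), as it did with median centring (-2.52 against 2.46) and with array weights (-2.88 against 2.50). Pfkp, the platelet-type subunit, read 1699, 2170 and 2146 in B cells and 2972, 2910 and 2899 in plasma cells. The groups did not overlap, and the change was smaller (0.55 ± 0.14, adjusted p = 0.0311). Its 2 other probe sets gave 1.09, which was called, and 0.17, which was not. Pfkl, the liver-type subunit, read 394, 696 and 724 in B cells against 565, 535 and 560 in plasma cells and was not called (-0.08 ± 0.25, adjusted p = 0.847).

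The bifunctional enzymes of the Pfkfb family make and break the small molecule that activates phosphofructokinase. Here 2 of 3 were lower in plasma cells. Pfkfb4 read 185, 576 and 497 in B cells and 52.0, 65.1 and 74.7 in plasma cells. It was 4.96-fold lower, although B cell array 1 read well under the other B cell arrays (-2.31 ± 0.43, adjusted p = 0.00937). Pfkfb3, whose product strongly favours activation of phosphofructokinase, read 957, 800 and 869 in B cells and 385, 382 and 476 in plasma cells. All plasma cell values were lower (-1.05 ± 0.15, adjusted p = 0.00312), and its second probe set gave -0.54 and was not called. Pfkfb2 read 597, 403 and 454 in B cells and 634, 602 and 561 in plasma cells, with overlap (0.32 ± 0.17, adjusted p = 0.236).

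**Figure D2:**
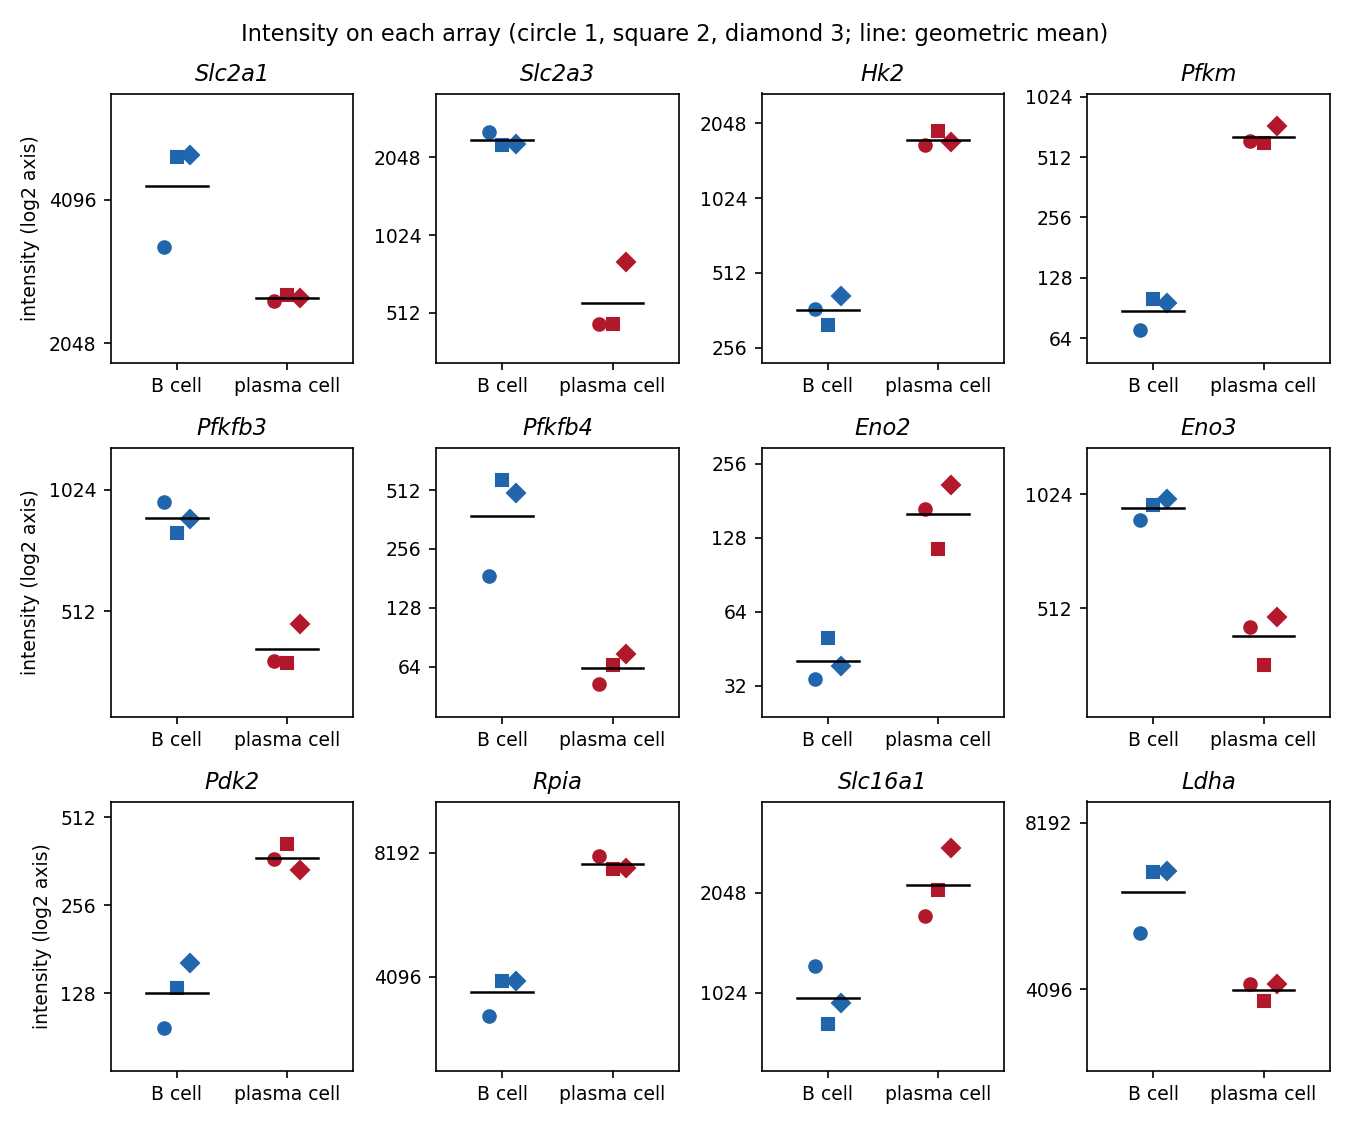
Intensity of selected genes on every array, on a log axis, with 3 B cell arrays and 3 plasma cell arrays per gene. Shown are Slc2a1, Slc2a3, Hk2, Pfkm, Pfkfb3, Pfkfb4, Eno2, Eno3, Pdk2, Rpia, Slc16a1 and Ldha. Hk2, Pfkm, Slc2a3 and Pfkfb4 show groups far apart. For Slc2a1, Pfkfb4, Eno3, Slc16a1 and Ldha B cell array 1 lies nearest to the plasma cell values.

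In the middle of the pathway the calls depended on the probe set. Aldolase cleaves the 6-carbon sugar, and the brightest probe set of Aldoa jumped on 1 array: it read 5800, 19028 and 5267 in plasma cells, and 4348, 7318 and 7081 in B cells (0.46 ± 0.54, adjusted p = 0.573). The other 4 probe sets of Aldoa, which read between 1164 and 6971 on plasma cell array 2, gave log2 fold changes of -0.09 to -0.04, and none was called. Aldoc read 140, 299 and 285 in B cells and 378, 383 and 329 in plasma cells. All plasma cell values were higher, without a call (0.62 ± 0.29, adjusted p = 0.172), and a dim second probe set, above background on 3 arrays, was called lower (-1.12). Tpi1, which interconverts the products of that cleavage, read 1218, 2086 and 2094 in B cells and 2787, 2721 and 2902 in plasma cells. Its groups did not overlap and its brightest probe set was not called (0.68 ± 0.24, adjusted p = 0.0822), whereas its 2 others, at 0.85 and 0.91, were called higher.

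Gapdh, which oxidises the resulting triose, was represented by the control probe sets of the array. The 3′ probe set read 8451, 9552 and 10005 in B cells and 11390, 11553 and 11261 in plasma cells (0.29 ± 0.12, adjusted p = 0.13). The middle and 5′ probe sets gave 0.54 and 0.64 and were called higher, so the call depended on the position of the probes. The 5′ to 3′ ratio of Gapdh was 0.424 to 0.523 in B cells and 0.592 to 0.624 in plasma cells, whereas that of the Actb controls was 0.628 to 0.670 in B cells and 0.566 to 0.600 in plasma cells. Pgk1, which makes ATP from the next intermediate, read 4915, 4746 and 5220 in B cells and 7253, 7269 and 7406 in plasma cells. It was higher by 0.56 ± 0.11 (adjusted p = 0.0121), and each of its 3 probe sets passed the threshold. Pgam1 read 2735, 3127 and 2742 in B cells and 3419, 3494 and 3647 in plasma cells, apart but not called (0.30 ± 0.12, adjusted p = 0.12).

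The enolases, which form phosphoenolpyruvate, moved in opposite directions. Eno2, the form named for neurons, read 34.1, 50.2 and 38.4 in B cells, where 2 of 3 values were above background, and 167, 115 and 209 in plasma cells. It was higher in plasma cells (1.64 ± 0.24, adjusted p = 0.00357). Eno3, the muscle form, read 876, 959 and 996 in B cells and 456, 362 and 487 in plasma cells, and was lower (-1.10 ± 0.15, adjusted p = 0.00315). Eno1, the form of most tissues, was not analysed here, so total enolase RNA is not known from these values. Pkm, pyruvate kinase, read 2389, 3374 and 3412 in B cells and 2911, 3190 and 3229 in plasma cells (0.04 ± 0.18, 95% confidence interval -0.39 to 0.48, adjusted p = 0.884). Its M1 and M2 splice forms were not told apart.

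Ldha, the lactate dehydrogenase subunit linked to lactate formation, was lower in plasma cells. It read 5180, 6672 and 6697 in B cells and 4192, 3899 and 4182 in plasma cells, with no overlap (-0.58 ± 0.15, adjusted p = 0.0299). Ldhb, the heart-type subunit, read 98.9, 37.9 and 52.3 in B cells and 101, 39.1 and 98.5 in plasma cells, and the arrays within a group differed more than the groups (0.27 ± 0.41, adjusted p = 0.669). Of the lactate transporters, Slc16a1, which encodes MCT1, read 1230, 827 and 955 in B cells and 1738, 2088 and 2780 in plasma cells. It was higher (1.11 ± 0.23, adjusted p = 0.0156), while a second probe set, above background on 2 arrays, gave -0.42 and was not called. Slc16a3, which encodes the exporter MCT4, was near background at 49.1 to 66.2 in B cells and 53.3 to 69.1 in plasma cells (0.03 ± 0.15, adjusted p = 0.887).

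All 3 pyruvate dehydrogenase kinase genes among the members were higher in plasma cells. Pdk4, a kinase gene outside the members, was named after its values were seen. It read 1705, 114 and 39.6 in B cells and 28.6, 47.8 and 38.3 in plasma cells. Its B cell mean rested on array 1, and it was not called (-2.11 ± 1.23, adjusted p = 0.259). Pdk2 read 97.2, 133 and 162 in B cells and 367, 414 and 337 in plasma cells, 2.68-fold higher (1.42 ± 0.20, adjusted p = 0.00326). Pdk3, on the X chromosome, read 525, 302 and 336 in B cells and 706, 759 and 732 in plasma cells (0.93 ± 0.22, adjusted p = 0.0239). For both genes every plasma cell value was above every B cell value. Pdk1 read 2398, 1870 and 2190 in B cells and 3328, 3175 and 3368 in plasma cells (0.62 ± 0.14, adjusted p = 0.019). Of its 3 other probe sets, 1 was called higher (0.74), and those at 0.24 and -0.37 were not called, so Pdk1 was not called when its probe sets were averaged (adjusted p = 0.0957). Pdha1, the subunit that the kinases phosphorylate, read 2504, 2995 and 3226 in B cells and 2214, 2341 and 2649 in plasma cells (-0.27 ± 0.15, adjusted p = 0.238).

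In the pentose phosphate pathway only Rpia, among the 4 members measured, was called. Rpia, which forms ribose 5-phosphate, read 3292, 4001 and 4001 in B cells and 8017, 7464 and 7521 in plasma cells. It was 2.04-fold higher, with no overlap (1.03 ± 0.13, adjusted p = 0.00234). The NADPH-forming Pgd read 1450, 2582 and 2668 in B cells and 2032, 2030 and 2024 in plasma cells (-0.09 ± 0.25, adjusted p = 0.831). Tkt, transketolase, read 4005, 7857 and 8315 in B cells and 4608, 4494 and 5046 in plasma cells (-0.44 ± 0.30, adjusted p = 0.327). Taldo1, transaldolase, read 1946, 2919 and 2965 in B cells and 2542, 2572 and 2467 in plasma cells (-0.02 ± 0.19, adjusted p = 0.946). In all 3 the plasma cell values lay between B cell array 1 and the other B cell arrays.

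The balance within a step was measured as the log2 ratio of 2 isoenzymes on the same array, which removes any scaling of a whole array. Since probe sets differ in brightness for equal RNA, only the difference of such a ratio between groups is read. Of 19 pairs, 17 were measured, and in 12 the ratios of the groups did not overlap. Where a step has 3 isoenzymes its pairs share genes, so the 12 are not separate results. The share among ratios of other gene pairs was not computed. For single genes the groups did not overlap in 47.8% of all genes. The design of 3 against 3 allows a smallest two-sided exact permutation p of 0.1, which all 12 reached, and 0.142 after adjustment over the 17 pairs, so none could pass the threshold. The ratio of Pfkl to Pfkm was 2.24, 2.61 and 2.73 in B cells and -0.12, -0.17 and -0.37 in plasma cells, a difference of -2.75 ± 0.17 (SE). That of Eno2 to Eno3 was -4.15, -3.88 and -4.22 in B cells and -1.36, -1.53 and -1.16 in plasma cells (2.73 ± 0.15). That of Hk1 to Hk2 was 0.73, 1.98 and 1.55 in B cells and -0.78, -1.05 and -0.98 in plasma cells (-2.36 ± 0.38). These shifts were several times larger than the spread within a group. The ratio of Pfkm to Pfkp was steady within groups, at -4.31 to -4.23 in B cells and -2.24 to -1.97 in plasma cells (2.12 ± 0.09), and that of Pfkfb2 to Pfkfb3 shifted by 1.37 ± 0.17. That of Slc2a1 to Slc2a3 shifted by 1.29 ± 0.37, but by -0.24 when probe sets that share sequence were left out. The ratios of Hk1 to Hk3, Aldoa to Aldoc, Ldha to Ldhb, Pdk1 to Pdk3 and Pdk2 to Pdk3 overlapped between groups.

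**Figure D3:**
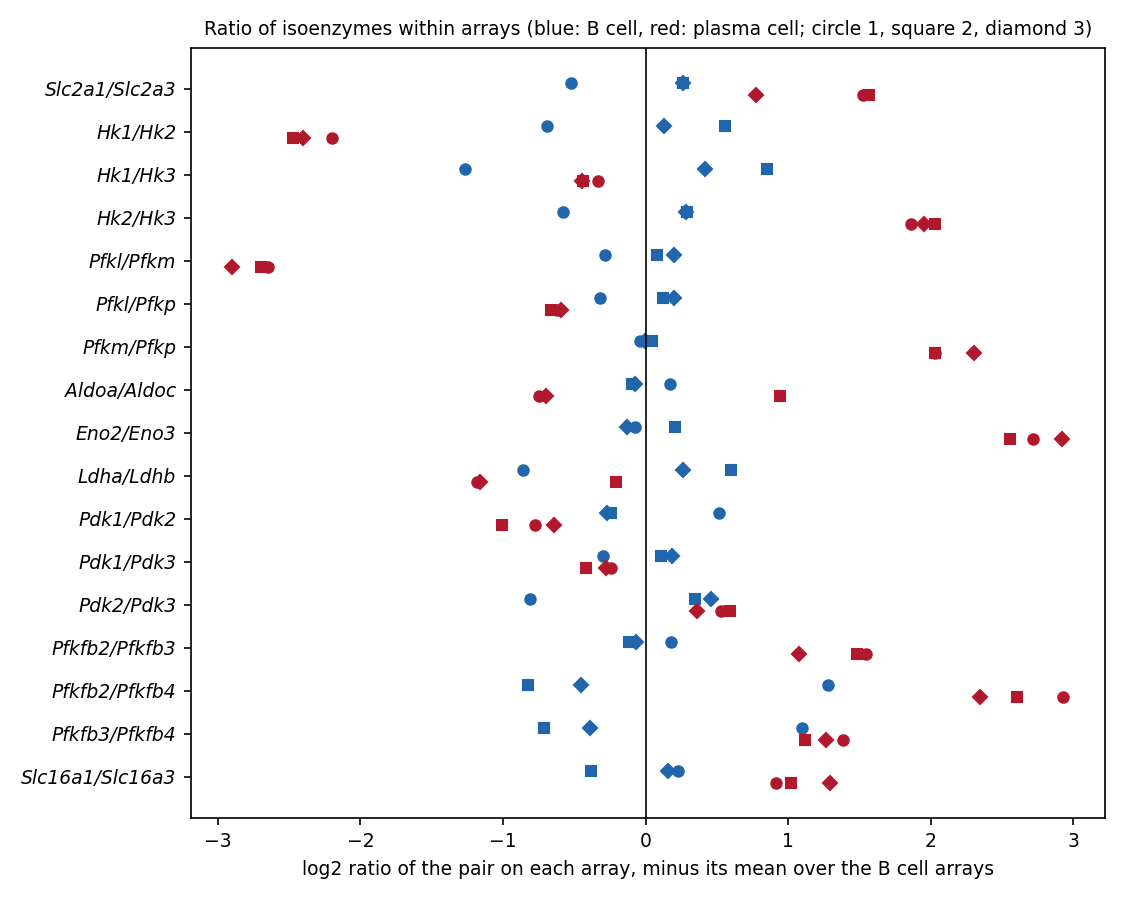
Log2 ratio of 2 isoenzymes on each array, minus the mean of that ratio over the B cell arrays, for the 17 pairs measured. There are 3 B cell and 3 plasma cell arrays per pair, and some pairs share genes. The groups do not overlap in 12 pairs, and Pfkl/Pfkm, Eno2/Eno3 and Hk1/Hk2 shift by -2.75, 2.73 and -2.36.

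Leaving out B cell array 1 enlarged the list of calls. That array read below both other B cell arrays for 21 of the 32 members and above both for 8, whereas over all genes it was below both for 8152 and above both for 7930. Its median log2 deviation from the mean of the other B cell arrays was -0.30 for the members and -0.01 for all genes. The deviation was -1.45 for Pfkfb4, -1.02 for Hk1, -1.01 for Tkt and -0.98 for Aldoc. Without it 13 members were higher and 10 lower, and all 16 earlier calls were kept. Those gained on the lower side were Tkt (-0.78), Hk1 (-0.47), Pgd (-0.37) and Pfkl (-0.35). On the higher side they were Hk3 (0.57), Pfkfb2 (0.47) and Tpi1 (0.42). Their limma adjusted p ran from 0.00277 for Tkt to 0.0246 for Hk3. Dimmer probe sets of some of these genes had the other sign with all 6 arrays, and none of the following was called. They gave 0.48 for Hk1, -0.54 and 0.16 for Pfkl, and -0.09, -0.10 and 0.11 for Pgd. Those of Tkt gave -0.35 and 0.19, and those of Pfkfb2 -0.08, 0.26 and -0.22. Over all genes the calls without B cell array 1 rose too, to 4122 higher and 3830 lower. Xist then separated the groups fully, so the effects of sex and of cell type cannot be told apart. Of the members on the X chromosome, Pgk1 and Pdk3 were called higher and Pdha1 was not called with all 6 arrays.

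**Figure D4:**
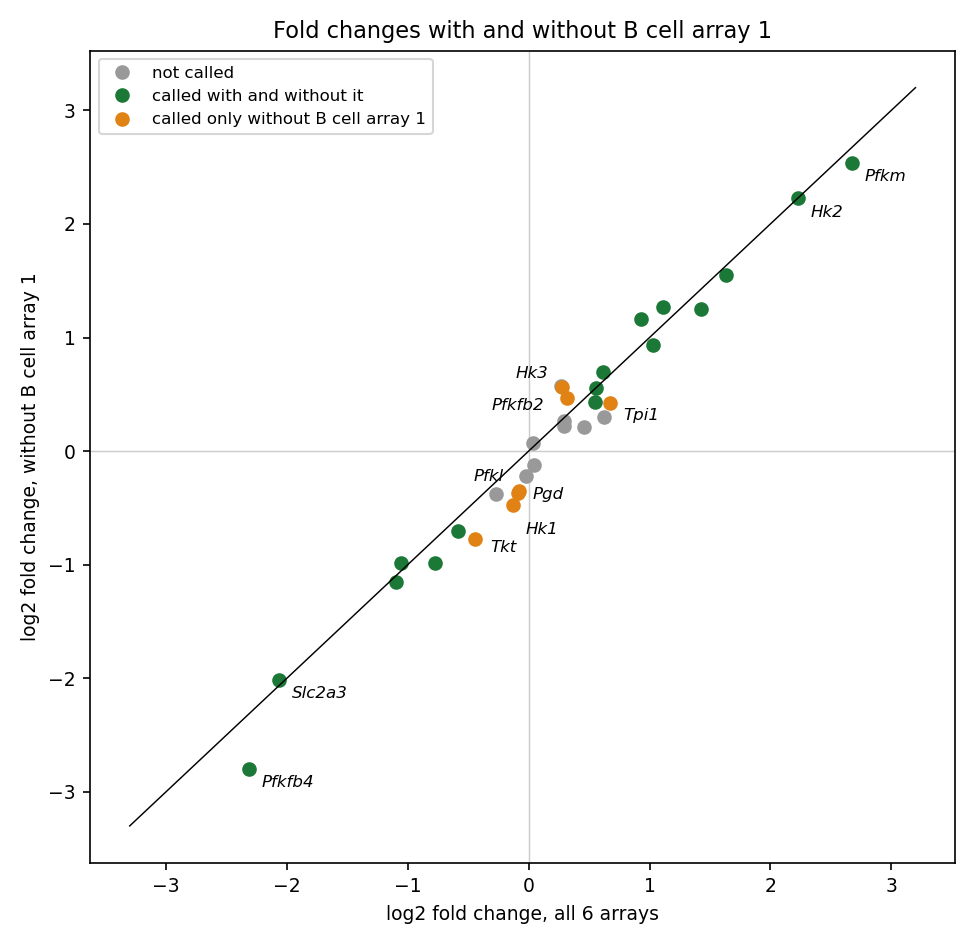
Log2 fold change of each of the 32 genes with all 6 arrays (horizontal) against that without B cell array 1 (vertical), with the line of equality. The 7 orange points are called only without that array, and Tkt moves from -0.44 to -0.78.

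Leaving out any other single array cost calls. Hk2, Pfkm, Pfkfb3, Pfkfb4, Eno2, Eno3, Pdk2, Rpia and Slc2a3 were called whichever array was left out. Slc2a1, Pfkp, Ldha, Pdk1 and Pdk3 were each lost without any 1 of the 5 other arrays, with adjusted p of 0.057 to 0.11. Pgk1 was lost without B cell array 2 or plasma cell array 1 or 2, and Slc16a1 without B cell array 2 or 3 or plasma cell array 2. Slc16a1 was also not called with its probe sets averaged (adjusted p = 0.285).

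Further genes of these pathways were taken from a list of 58, of which 54 were measured. Of these 16 were higher in plasma cells and 4 lower, with a median log2 fold change of 0.13, beside 17.5% higher and 12.3% lower and a median of -0.06 over all genes. Among 9 other pentose phosphate genes 6 were higher and 0 lower at the limma threshold, with 6 at an unadjusted p below 0.05. They included Rbks, ribokinase, at 375 ± 25.2 in B cells and 1145 ± 83.2 in plasma cells (mean ± SD, n = 3, log2 fold change 1.57, adjusted p = 0.000391). Tktl1 and Tktl2, both named after their values were seen, were also among the 6 and were dim. Tktl1 read 32.1, 39.6 and 36.6 in B cells and 56.3, 50.6 and 72.7 in plasma cells. Tktl2 was within background on all B cell arrays (16.2, 12.9 and 19.3). In plasma cells Tktl2 read 35.4, 29.95 and 36.9, above background on 2 arrays. Among 8 other lower glycolysis genes 3 were higher and 1 lower. Pgam2, the muscle form of phosphoglycerate mutase, was within background on all B cell arrays (4.48, 8.35 and 5.75) and read 2481, 1363 and 1943 in plasma cells. It was at least 65.3-fold higher, taking the background of each B cell array as the bound. Bpgm, bisphosphoglycerate mutase, read 982 ± 219 and 3857 ± 106 (1.98, adjusted p = 0.000695). Among glycogen and glucose phosphate genes 4 of 9 were higher and 1 lower. Of 10 further genes of pyruvate entry 1 was called, and neither of 2 hexokinase genes nor any of 3 upper glycolysis genes was.

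Among the lower genes, Slc16a7, which encodes the transporter MCT2, fell from 329 ± 37.6 in B cells to 50.6 ± 10.4 in plasma cells (-2.38, adjusted p = 0.000247). Gpd2, the mitochondrial glycerol phosphate dehydrogenase, fell from 3682 ± 314 to 1117 ± 203 (-1.72, adjusted p = 0.000836). Among 8 other glucose uptake genes 1 was higher and 1 lower, both dim. Slc2a12 was the higher one (0.84, adjusted p = 0.0358; named after its values were seen). Slc2a2, which encodes GLUT2, was within background on all plasma cell arrays and above it on 2 of 3 B cell arrays, at least 1.02-fold lower (adjusted p = 0.00129). Bsg, the partner protein that carries MCT1 to the cell surface, was named after its values were seen. It read 2189 ± 352 in B cells and 5697 ± 244 in plasma cells (1.39, adjusted p = 0.00148), so Slc16a1 and Bsg were both higher while Slc16a7 was lower.

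Of 19 listed regulators of glucose metabolism 18 were measured, and 1 was higher and 4 lower, beside 29.9% of all genes called in either direction. Hif1a, the oxygen-regulated activator of many glycolytic genes, read 4603 ± 264 in B cells and 3388 ± 140 in plasma cells (-0.44, adjusted p = 0.0337). Myc, a growth-linked activator of the same enzymes, was not called (-0.38, adjusted p = 0.0854), and Txnip, an inhibitor of glucose uptake, read 9060 ± 591 and 9478 ± 254 (0.07, adjusted p = 0.707). Mlx, the gene called higher, encodes the partner of glucose-sensing factors (0.95, adjusted p = 0.00213), whereas Mlxip, which encodes one of those factors, was lower (-0.65, adjusted p = 0.0158). Akt2, a kinase of insulin signalling, was also lower (-1.24, adjusted p = 0.00259). The fourth gene called lower, Prkaa2, an AMP-activated kinase subunit, was within background on all 6 arrays. These 4 were named after their values were seen. These are RNA levels, and the activity of the factors was not measured.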

How the data were processed

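Each sample was hybridised to 1 one-colour Affymetrix mouse array after NuGEN amplification, per the labels' protocols. The authors deposited linear intensity values for 45101 probe sets; their summarisation and normalization are not given in the sources used here. Probe sets were named from the platform annotation, updated to RefSeq GRCm38.p6 symbols: 34945 had 1 symbol, 932 several and 9160 none here. The 64 control probe sets were left out, except those of Gapdh. Background was the 95th percentile of 27 bacterial control probe sets on each array. The brightest probe set of a gene had the highest mean log2(intensity + 16). Groups were compared with limma 3.58.1 (R 4.3.3; lmFit and eBayes, no covariates), with a threshold of adjusted p = 0.05, tested on simulated data. Isoenzyme ratios used a two-sided exact permutation test. Outside the members, the 3 highest and 3 lowest called genes of the other lists, and Hif1a, Myc, Txnip and Pgam2, were named by rule. Bsg, Slc2a12, Tktl1, Tktl2, Pdk4, Mlx, Mlxip, Akt2 and Prkaa2 were added after their values were seen. The members and lists were chosen with earlier results of these data known. The number of arrays, 3 in each group, limits the precision. Alternatives were the pseudocount, a background filter, scaling, the probe set rule, the variance model, a replicate block and leaving out each array.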

Additional observations from a re-analysis of the deposited data

How the results depend on the processing

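Of the 16 members called, 8 (Eno2, Eno3, Hk2, Pdk2, Pfkfb3, Pfkfb4, Pfkm and Rpia) were called under all 17 alternatives, and none of the 16 reversed. Replicate numbers did not pair the samples (correlations of same-numbered deviations 0.0484, 0.0047 and 0.0458), and with a replicate block 5 members were higher and 4 lower. With median centring, which shifts all genes by -0.21, 2029 genes were higher and 2780 lower (main 3193 and 2246), Pdk1 (0.41), Pfkp (0.34), Pgk1 (0.35) and Ldha, whose fold change grew to -0.79 (adjusted p = 0.0515), lost their calls, and 8 other pathway genes were higher. With array weights, 4842 genes were higher and 4655 lower, with 11 members, 12 other pathway genes and 8 regulators lower. Regulators called higher numbered 2 with a pseudocount of 64, the background filter, median centring, quantile normalization, a variance trend or array weights, and 2 were lower with the median of all probe sets; that setting, and regulators under all alternatives, were chosen after seeing the data. Leaving out 1 array gave 2224 to 4122 higher and 1347 to 3830 lower genes, 5 to 13 and 4 to 10 members, 10 to 20 and 3 to 9 other pathway genes, 1 to 2 and 1 to 7 regulators, and 8 to 12 isoenzyme pairs apart by at least 1.

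Reversals were in 10 members without a call and 1 pair whose groups did not overlap. Of the pairs that overlapped, Aldoa to Aldoc (-0.17) turned to 0.28 and 0.21 with the mean and median of probe sets and 0.12 and 0.097 without plasma cell arrays 1 and 3, and Hk1 to Hk3 (-0.41) to 0.15 with the mean or median and 0.020 without B cell array 2. With the median of probe sets these were Aldoa (-0.042), Pfkfb2 (-0.11), Aldoc (-0.25) and Hk1 (0.18), the last 2 also with the mean. Without probe sets that share sequence these were Ldhb (-0.034), Pgd (0.11) and the ratio of Slc2a1 to Slc2a3 (-0.24). With median centring and array weights, Pkm was -0.17 and -0.13 and Slc16a3 -0.17 and -0.057. Leaving out each array in turn, Aldoa ranged from -0.14 (without plasma cell array 2) to 0.79, Pkm from -0.13 (without B cell array 1) to 0.13, and Slc16a3 from -0.069 (B cell array 3 left out, and -0.038 with plasma cell array 3 left out) to 0.11. Without B cell array 1 Hk1 was -0.47, Pfkl -0.35, Pgd -0.37 and Taldo1 -0.22, and without B cell arrays 2 and 3 in turn they were 0.056 and 0.024, 0.047 and 0.075, 0.044 and 0.067, and 0.072 and 0.083. The cause was not tested. Values near background, such as Hk3, Ldhb and Slc16a3, limit what their fold changes show.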
